A study of Homo sapiens with 8 samples.

Results

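The mitochondrial ribosomal proteins are the parts of the ribosome that translates inside mitochondria. Here they were read in native RNA of 3 human cell lines, GM12878, HepG2 and K562. A gene was taken as a member when the deposited tables list it as an annotated gene and its symbol is MRPS or MRPL followed by a number and at most 1 further letter. This rule uses names only and no measured value. It found 78 members among 20565 annotated genes, 29 with small-subunit (MRPS) and 49 with large-subunit (MRPL) symbols. The tables hold 2848 transcript models of these 78 genes, 1854 of them with a read, among 506946 models in all.

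Sequencing was done on Oxford Nanopore instruments from native RNA, in which each read is 1 RNA molecule, as part of a study that set this method beside another long-read technology. GM12878 is a B-lymphoblastoid line and gave 3 libraries. HepG2 is a hepatocellular carcinoma line and gave 3. K562 is a myelogenous leukaemia line, although its label repeats the lymphoblastoid cell type of GM12878, and gave 2. No treatment, genotype change or time point is given for any of them, and each group is 1 established line, so a difference between groups is a difference between lines. The labels do not say whether libraries of a line came from separate cultures, so every p-value below measures a spread between libraries that may be technical.

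The mitochondrial ribosome makes the few proteins that mitochondrial DNA encodes, all of them parts of the respiratory chain and ATP synthase, while its own proteins are encoded in the nucleus, made in the cytosol and imported. Its small subunit reads the messenger RNA and its large subunit forms the peptide bond and passes the new chain to the inner membrane. Many of its proteins descend from bacterial ribosomal proteins, and others were added in mitochondria and coat the outside of the particle. A symbol does not always place a protein: MRPS30 and MRPS18A are parts of the large subunit.

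Members lie on 21 chromosomes, and 17 of the 78 (21.8%) have another protein-coding gene that starts within 1000 bases on the opposite strand and runs the other way, compared with 10.4% of 4635 tested protein-coding genes. In 1 such pair both genes are members: MRPS11, a small-subunit protein, and MRPL46, a large-subunit protein, start 34 bases apart on chromosome 15 in the GENCODE annotation. Start regions of 69 members were found in RefSeq (GRCh38.p14), each a window of 300 bases, 250 before the start and 50 after. Letters of 3 motifs were sought on both strands. CCGGAAG, the core of ETS factors such as GABP, was in 29 of the 69 windows (42.0%), in 22.5% of the windows of tested genes and in 10.7% of all 27305 windows. AAGATGGCG, the YY1 motif, was in 13 (18.8%), against 4.92% of tested genes and 1.85% of all. The NRF1 motif, GCGCA, any base and GCGC, was in 8 (11.6%), against 13.6% and 6.28%. The letters of the 3 motifs differ, and windows can hold more than 1. At least 1 of them was in 62.3% of member windows, 35.6% of those of tested genes and 17.0% of all. A match describes the letters only and is no measure of binding.

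Printed below are the windows of the head-to-head pair, whose genes were both lower in K562 than in HepG2, of MRPL40, the most firmly K562-high member, and of MRPL16, MRPL39 and MRPS6, which held the largest differences between HepG2 and another line. Each runs 5′ to 3′ along the strand of its gene, and capitals mark a motif match. MRPS11 is chr15:88467458-88467757 (plus strand), MRPL46 chr15:88467339-88467638 (minus), MRPL40 chr22:19432295-19432594 (plus), MRPL16 chr11:59810729-59811028 (minus), MRPL39 chr21:25607432-25607731 (minus) and MRPS6 chr21:34073328-34073627 (plus).
MRPS11: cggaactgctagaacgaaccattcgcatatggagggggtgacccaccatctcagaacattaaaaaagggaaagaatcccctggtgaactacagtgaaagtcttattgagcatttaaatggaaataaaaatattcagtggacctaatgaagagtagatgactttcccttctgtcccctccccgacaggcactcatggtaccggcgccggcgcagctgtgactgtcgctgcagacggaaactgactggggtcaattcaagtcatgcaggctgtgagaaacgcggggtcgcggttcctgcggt
MRPL46: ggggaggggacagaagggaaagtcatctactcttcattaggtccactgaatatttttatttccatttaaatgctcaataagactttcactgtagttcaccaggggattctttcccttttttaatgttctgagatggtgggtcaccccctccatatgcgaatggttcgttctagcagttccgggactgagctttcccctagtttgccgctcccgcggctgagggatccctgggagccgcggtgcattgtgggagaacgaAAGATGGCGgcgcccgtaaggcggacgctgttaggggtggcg
MRPL40: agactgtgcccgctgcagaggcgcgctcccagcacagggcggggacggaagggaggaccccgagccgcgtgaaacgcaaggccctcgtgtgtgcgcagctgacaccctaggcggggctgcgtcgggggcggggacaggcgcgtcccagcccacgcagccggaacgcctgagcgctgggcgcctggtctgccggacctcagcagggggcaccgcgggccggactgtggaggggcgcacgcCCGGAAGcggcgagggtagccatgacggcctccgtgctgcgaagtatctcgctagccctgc
MRPL16: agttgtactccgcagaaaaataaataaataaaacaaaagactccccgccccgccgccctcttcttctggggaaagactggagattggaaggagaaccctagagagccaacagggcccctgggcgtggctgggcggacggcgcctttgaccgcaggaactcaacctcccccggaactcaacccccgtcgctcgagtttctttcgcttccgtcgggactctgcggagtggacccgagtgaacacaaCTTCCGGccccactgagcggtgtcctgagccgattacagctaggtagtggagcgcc
MRPL39: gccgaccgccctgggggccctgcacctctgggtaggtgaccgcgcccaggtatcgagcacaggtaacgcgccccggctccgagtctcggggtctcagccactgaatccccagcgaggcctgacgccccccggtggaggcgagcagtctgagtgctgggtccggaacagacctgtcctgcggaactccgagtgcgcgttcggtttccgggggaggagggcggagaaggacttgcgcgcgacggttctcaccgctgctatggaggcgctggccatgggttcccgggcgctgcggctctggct
MRPS6: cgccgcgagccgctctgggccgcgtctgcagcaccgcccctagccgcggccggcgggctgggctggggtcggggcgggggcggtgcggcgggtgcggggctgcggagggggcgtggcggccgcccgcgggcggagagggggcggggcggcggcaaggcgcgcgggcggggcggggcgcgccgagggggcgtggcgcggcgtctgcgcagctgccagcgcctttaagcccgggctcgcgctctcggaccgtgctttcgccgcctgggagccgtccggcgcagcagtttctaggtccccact
The MRPS11 and MRPL46 windows share 181 bases, read from opposite strands. The YY1 letters of MRPL46 begin at base 9 after its start, the ETS letters of MRPL40 begin 11 bases before its start, and those of MRPL16, on the opposite strand, begin 6 bases before. None of the 3 motifs was found in the MRPS11, MRPL39 and MRPS6 windows, which says nothing of the factors. Starts named with the windows are those of RefSeq. GENCODE places the starts of MRPS11 (88467453), MRPL40 (19431902) and MRPS6 (34073224) before the first base of their windows. Those windows therefore hold no sequence upstream of the GENCODE start.

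Read totals were 70374 to 461497 per library, of which 795 to 3361 were on members. Before any comparison, the lines were checked by their own markers. B cell genes (CD79A, MS4A1, CD74 and IGHM) summed to 8688 to 9553 CPM (read counts scaled to a common library size) in GM12878. They summed to 188 to 280 CPM in HepG2, with MS4A1 and IGHM at 0. In K562 they summed to 0 to 3.45 CPM, with MS4A1, IGHM and CD79A at 0. Liver genes (ALB, APOA1, AHSG and HNF4A) were seen in HepG2 alone, and HBG1, HBG2, HBE1 and GATA1 in K562 alone, in these libraries. Each label therefore matched its line, apart from the cell type given for K562.

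All 78 members had a read in each of the 8 libraries, the lowest with 1 read, and 76 had at least 10 reads in each line. Together they took a similar small part of the reads in the lymphoblastoid and leukaemia lines and a smaller part in the liver line. Their share of the reads on annotated genes was 0.989%, 1.08% and 1.14% in the GM12878 libraries (1.07% ± 0.0768, SD, n = 3) and 0.734%, 0.753% and 0.834% in HepG2 (0.774% ± 0.0531, n = 3). The K562 libraries gave 1.29% and 0.911% (1.10% ± 0.269, n = 2). The 3 HepG2 shares lay below all others, and the K562 pair differed from each other by more than GM12878 did from HepG2. Each value is an average over the cells of 1 line. The share depends on what else is in the library: without the 50 most abundant genes it was 1.38%, 1.08% and 1.44% in the 3 lines.

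Levels below are CPM scaled with TMM factors over the tested genes, and since 1 read is 1 molecule they are not divided by length. Of the 12 members highest by CPM, 9 were also among the first 12 by CPM per kilobase. The typical member was at 125 CPM in GM12878, 115 in HepG2 and 106 in K562 (medians of line means), against 66.8, 80.9 and 65 for all tested genes. The members spanned 17.4 CPM (MRPL30) to 319.6 (MRPL4) in GM12878, 23.2 (MRPS31) to 502 (MRPL52) in HepG2 and 15.1 (MRPL44) to 402 (MRPL12) in K562.

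Among small-subunit members the highest means over the 3 lines were those of MRPS24, MRPS34, MRPS21, MRPS15, MRPS16 and MRPS7. MRPS24, a protein with a bacterial counterpart, stood at 220.0, 262 and 323 CPM in GM12878, 290.2, 259 and 284 in HepG2, and 279 and 297 in K562. Its 8 values overlapped across all lines, and none of its 3 differences was called. MRPS34, which has no bacterial counterpart, read 273, 332 and 281 CPM in GM12878, 201, 201 and 203 in HepG2, and 324 and 259 in K562. HepG2 was the lowest line for MRPS34, without overlap, but its difference from GM12878 was log2 -0.56 with adjusted p = 0.0539, short of the threshold. Line means in GM12878, HepG2 and K562 were 215, 145 and 238 CPM for MRPS21 and 188, 185 and 218 for MRPS15. Those of MRPS16 were 176, 139.9 and 255 CPM, and those of MRPS7, 167, 227 and 171. None of the 4 was called.

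Among large-subunit members the highest were MRPL12, MRPL52, MRPL37, MRPL14, MRPL4 and MRPL51. MRPL12, the mobile stalk protein that contacts translation factors, stood at 287, 349 and 267 CPM in GM12878, 483, 592 and 409 in HepG2, and 480.1 and 324 in K562. Every HepG2 value was above every GM12878 value, but the difference was under the doubling required for a call (log2 0.68, SE 0.24, adjusted p = 0.0119, edgeR quasi-likelihood test with Benjamini-Hochberg adjustment). Line means in GM12878, HepG2 and K562 were 269.6, 285 and 374 CPM for MRPL37 and 255, 321 and 277 for MRPL14. Those of MRPL4 were 319.6, 186 and 312 CPM and those of MRPL51 294, 271 and 199. None of the 4 was called. For MRPL4, which lines the exit tunnel, HepG2 lay below both other lines without overlap, at log2 -0.74 against GM12878 (adjusted p = 0.0112).

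The genes MRPS18A, MRPS18B and MRPS18C are related copies of 1 bacterial protein, and only MRPS18C was called. It read 167, 163 and 211 CPM in GM12878, 94.8, 68.7 and 81.1 in HepG2, and 182 and 82.8 in K562. The GM12878 values all exceeded those of HepG2, while the K562 pair spanned both. The difference between HepG2 and GM12878 was log2 -1.08 (SE 0.33, adjusted p = 0.00508). This call was lost without HepG2 replicate 2 or 3 and without a filter on low counts. The line means of MRPS18A were 179.7, 140.4 and 115 CPM and those of MRPS18B 139.9, 148 and 204, and whether the 3 copies differ from each other was not tested.

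Differences between lines were tested for 76 of the 78 members (MRPL1 and MRPL44 failed the filter on low counts), in 1 edgeR quasi-likelihood fit over all genes and libraries. A gene was called when its adjusted p was under 0.05 and its absolute log2 change at least 1. The 3 comparisons share libraries, so they are not independent of each other. Of the 76 tested members, 29 (38.2%) were called in at least 1 comparison, against 65.5% of the 4778 tested genes, 47 were called in none, and 13 were called in 2 or more. The median absolute log2 change of members was 0.53 for HepG2 against GM12878, 0.46 for K562 against GM12878 and 0.59 for K562 against HepG2. Over all tested genes it was 1.06, 0.71 and 0.95. The typical member was also at a higher level than the typical tested gene. Whether level bears on the share of calls was not tested. A member that was not called is not shown to be equal between lines. In 41 of 42 settings tried (14 for each comparison) a smaller percentage of members than of all tested genes was called. The exception was K562 against HepG2 without a filter on low counts (19.2% of members, 18.9% of genes). Without that filter the shares also lay closer in HepG2 against GM12878 (16.7% and 21.5%) and in K562 against GM12878 (10.3% and 11%). The settings reuse the same libraries, so they are not independent of each other.

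**Figure D1:**
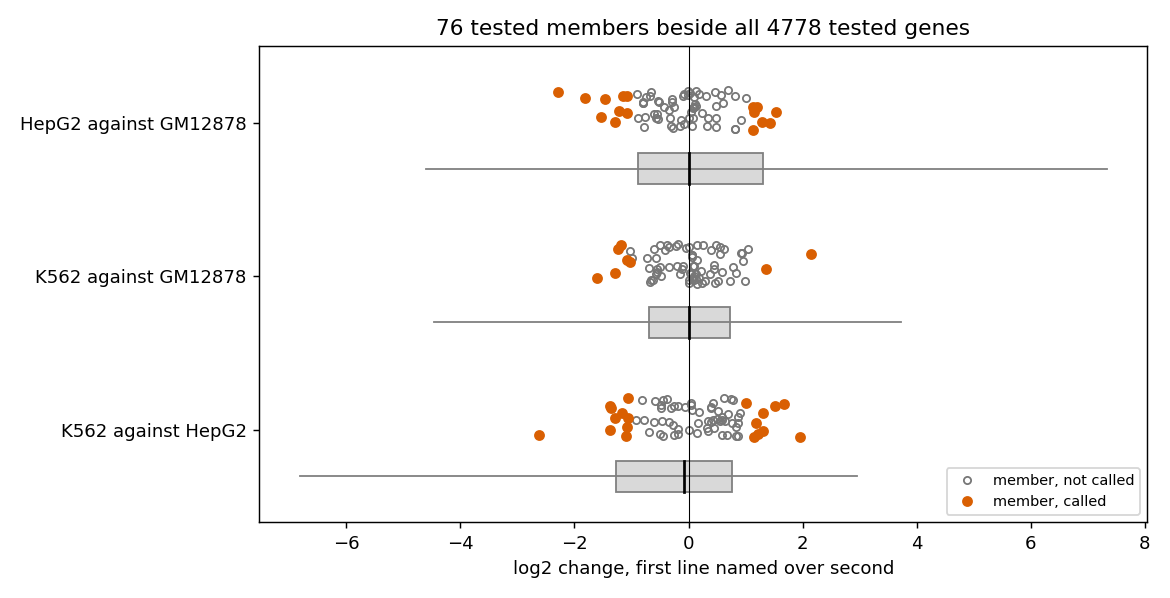
The log2 change of each tested member (circles; filled where called) in 3 comparisons, beside a grey box for all 4778 tested genes (box, 25th to 75th percentile; line, 5th to 95th; black bar, median). Vertical scatter of the circles has no meaning. Members gather around 0 in each comparison and lie inside the 5th to 95th percentile of all genes.

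In HepG2 against GM12878, 7 members were higher in HepG2 (28% of all tested genes were called in that direction) and 9 were lower (21.1%). In all, 21.1% of members were called, against 49.1% of genes, and the median change of members was log2 -0.04, beside 0.02 for all genes. In K562 against GM12878, 2 were higher in K562 (13.9% of genes) and 6 lower (14.8%), and the medians were 0.05 and 0. In K562 against HepG2, 9 were higher in K562 (17.4%) and 10 lower (26.7%), with medians of 0.18 and -0.07. The libraries of the 2 lines did not overlap for 35 of 76 members in the first comparison (46.1%, against 63.1% of all genes), 25 in the second (32.9%, against 48.8%) and 39 in the third (51.3%, against 64%). Single libraries set some of these counts. Without GM12878 replicate 1 the 7 became 3, and without K562 replicate 2 the 10 became 4. For K562 against GM12878 the 2 higher became 4 to 6 without GM12878 replicate 3, without any 1 HepG2 library and without either K562 library. The 6 lower became 3 without GM12878 replicate 2 or 3, HepG2 replicate 1 or 2, or K562 replicate 2.

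By symbol alone, 2 MRPS genes rose and 3 fell of 29 tested in HepG2 against GM12878, and 5 MRPL genes rose and 6 fell of 47. For K562 against GM12878 the counts were 0 and 2 for MRPS genes, and 2 and 4 for MRPL genes. For K562 against HepG2 they were 3 and 3, and 6 and 7. MRPS30, a large-subunit protein, is among the 3 MRPS genes higher in K562 than in HepG2. By origin, 3 of the 44 tested members with a bacterial counterpart were higher in HepG2 than in GM12878 and 7 lower, against 4 and 2 of the 32 without one. In K562 against GM12878 the counts were 1 and 5, and 1 and 1. In K562 against HepG2 these became 5 higher and 4 lower in K562 with a counterpart, and 4 and 6 without. Of the MRPS18 copies this list takes only MRPS18C as the counterpart, and the others, called in no comparison, count among the 32. In HepG2 against GM12878, 17.2% of MRPS genes, 23.4% of MRPL genes, 22.7% with a counterpart and 18.8% without were called. Over all tested genes it was 49.1%. The same 4 shares were 6.9%, 12.8%, 13.6% and 6.25% in K562 against GM12878 (28.7% of all genes). In K562 against HepG2 they were 20.7%, 27.7%, 20.5% and 31.2% (44.1% of all genes). These are counts and shares, and the differences between subsets were not tested.

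**Figure D2:**
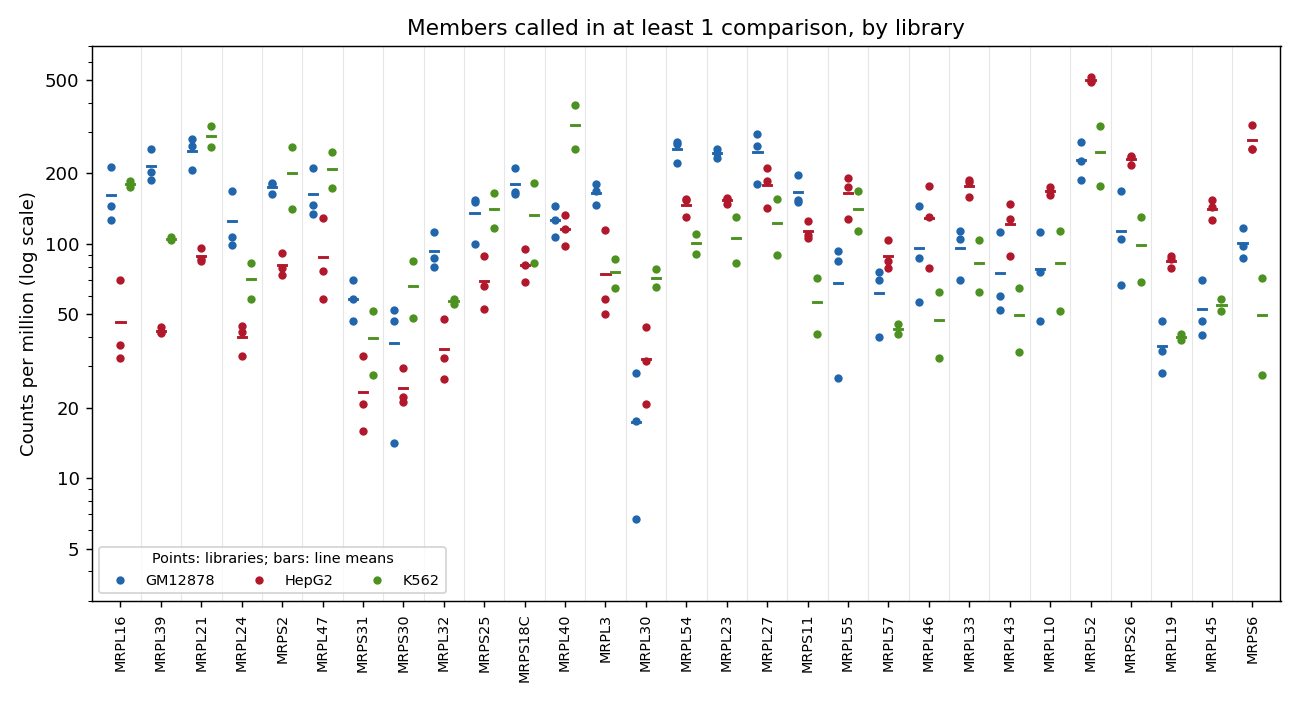
CPM of the 29 members called in at least 1 comparison, on a log axis; points are libraries (3 of GM12878, 3 of HepG2, 2 of K562) and short bars are line means. Members are ordered by the HepG2 mean relative to the other lines, from MRPL16, lowest in HepG2, to MRPS6, highest.

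Members lower in HepG2 than in both other lines were MRPL16, MRPL21, MRPL39 and MRPS2. MRPL16 sits beside the peptidyl transferase centre and has a bacterial counterpart. It read 213, 145 and 127 CPM in GM12878, 32.6, 37.0 and 70.0 in HepG2, and 175 and 186 in K562. No HepG2 library reached any of the others. The differences were log2 -1.82 (SE 0.36, adjusted p = 2.51e-05) for HepG2 over GM12878 and log2 1.95 (SE 0.37, adjusted p = 1.2e-05) for K562 over HepG2. MRPL21, also of bacterial origin, stood at 207, 262 and 281 CPM in GM12878, 85.9, 84.5 and 95.8 in HepG2, and 318 and 259 in K562. HepG2 was again apart from both, at log2 -1.46 (SE 0.29, adjusted p = 2.14e-05) and, for K562 over HepG2, log2 1.68 (SE 0.29, adjusted p = 3.37e-06). These 4 calls held in each of the 14 alternatives.

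MRPL39, a large-subunit protein without a bacterial counterpart, had the most negative change among the 76 tested members in HepG2 against GM12878. It read 187, 204 and 253 CPM in GM12878, 41.5, 42.3 and 44.2 in HepG2, and 104 and 107 in K562. The 3 lines formed 3 separate levels, with HepG2 the lowest and GM12878 the highest. The change was log2 -2.28 (SE 0.35, adjusted p = 1.38e-07) for HepG2 over GM12878 and log2 1.30 (SE 0.39, adjusted p = 0.00449) for K562 over HepG2. K562 over GM12878 was log2 -0.98 (adjusted p = 0.0262), just under the doubling required. MRPS2, a small-subunit protein with a bacterial counterpart, had line means of 175, 81.6 and 200.5 CPM, with changes of log2 -1.08 and 1.22 (adjusted p = 0.00382 and 0.00157). Its K562 libraries read 259.5 and 141, and the K562 call was lost without K562 replicate 1. The other was lost without HepG2 replicate 3 and without a filter on low counts.

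Other members were lower in HepG2 than in GM12878 alone. MRPL24, which lies at the mouth of the exit tunnel, read 107, 98.9 and 169 CPM in GM12878, 44.4, 42.3 and 33.2 in HepG2, and 58.4 and 82.8 in K562. Its 3 HepG2 values were below all others, and the change was log2 -1.54 (SE 0.39, adjusted p = 0.000684), a call that held in 14 of 14 alternatives. MRPL32, which is trimmed by a mitochondrial protease before assembly, fell by a similar amount (log2 -1.30, adjusted p = 0.00635), and its call was lost when only known models were counted. MRPL3, an early-assembling large-subunit protein, was higher in GM12878 than in both other lines, at 147, 180.4 and 169 CPM in GM12878, 50.3, 58.1 and 114 in HepG2, and 64.9 and 86.2 in K562. All 3 GM12878 values exceeded the 5 others. Its changes were log2 -1.15 in HepG2 and -1.08 in K562 (adjusted p = 0.00423 and 0.0301). The first was lost without HepG2 replicate 1 or 2 and the second in 10 of 14 alternatives. MRPS31 had 57 reads in all, and its call (log2 -1.23, adjusted p = 0.0424) was lost in 8 of 12 alternatives.

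Members higher in HepG2 than in both other lines were MRPS6, MRPL45, MRPL52, MRPS26 and MRPL19. MRPS6, a small-subunit protein with a bacterial counterpart, had the largest absolute change among tested members, in K562 against HepG2. It read 86.7, 116 and 98.4 CPM in GM12878, 255, 322 and 254 in HepG2, and 71.4 and 27.6 in K562. The lowest HepG2 library was more than double the highest of the 5 others. The changes were log2 1.43 (SE 0.31, adjusted p = 8.74e-05) for HepG2 over GM12878 and log2 -2.62 (SE 0.38, adjusted p = 5.37e-08) for K562 over HepG2, and both held in 14 of 14 alternatives. The change for K562 over GM12878 was log2 -1.18 (adjusted p = 0.0349), and it was lost in 10 of 14, among them the fit without K562 replicate 2. MRPS6 overlaps SLC5A3 and a noncoding transcript on the same strand, which had 3 and 20 reads in all, against 275 for MRPS6.

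MRPL45, which ties the tunnel exit to the inner membrane, read 46.7, 40.7 and 70.3 CPM in GM12878, 154, 127 and 144 in HepG2, and 58.4 and 51.7 in K562. HepG2 was apart from the other lines, whose values overlapped. The changes of log2 1.53 (SE 0.39, adjusted p = 0.000688) and, for K562 over HepG2, log2 -1.38 (SE 0.39, adjusted p = 0.00239) held in 13 of 13 alternatives each. A transcribed pseudogene, MRPL45P2, had 10 reads over all libraries, against 158 for MRPL45. Of 75 annotated pseudogenes named after 34 members, 2 had any read.

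MRPL52 was the most abundant member in HepG2. It read 187, 273 and 225 CPM in GM12878, 497, 491 and 516 in HepG2, and 318 and 176 in K562. HepG2 lay above both other lines in every library, at log2 1.12 (SE 0.25, adjusted p = 0.000128) over GM12878 and, for K562 over HepG2, log2 -1.07 (adjusted p = 0.000708). The first fell to log2 0.98 without GM12878 replicate 1, and the second was lost in 6 of 14 alternatives, in each by falling below a doubling. MRPS26 had line means of 113, 229.9 and 99.4 CPM, with changes of log2 1.13 and -1.29 (adjusted p = 0.00225 and 0.00132). Both were lost when only known models were counted, where they were 0.31 and -0.07. The first was also lost without GM12878 replicate 1 and the second without K562 replicate 2. MRPL19 had 36.6, 84.5 and 40.2 CPM and changes of 1.15 and -1.06 (adjusted p = 0.0198 and 0.0332). The first was lost with DESeq2 and without GM12878 replicate 2 or 3, and the second in 11 of 13 alternatives.

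Another pair, MRPL10 and MRPL55, rose in HepG2 over GM12878 alone. MRPL10, the stalk base that carries MRPL12, went from 78.3 ± 33.0 to 168 ± 6.11 CPM (SD, n = 3 each; log2 1.21, adjusted p = 0.00374, edgeR). MRPL55 went from 68.0 ± 36.1 to 164 ± 33.3 (log2 1.29, adjusted p = 0.00272, edgeR). GM12878 replicate 1 gave the lowest value of its line for both, 46.7 and 26.7, and both calls were lost without it. MRPL12 itself, carried by MRPL10, was not called in any comparison.

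The members higher in K562 than in both other lines were MRPL40 and MRPL30. MRPL40, a large-subunit protein without a bacterial counterpart, read 107, 145 and 127 CPM in GM12878, 97.7, 116 and 133 in HepG2, and 253 and 389.8 in K562. Both K562 libraries exceeded the 6 others, and GM12878 and HepG2 overlapped. The changes were log2 1.37 (SE 0.31, adjusted p = 0.00043) over GM12878 and log2 1.51 (SE 0.29, adjusted p = 1.52e-05) over HepG2, and both held in 14 of 14 alternatives. MRPL30, with a bacterial counterpart, was among the least abundant members, at 6.67, 17.5 and 28.1 CPM in GM12878, 20.7, 31.7 and 44.2 in HepG2, and 77.9 and 65.5 in K562. K562 was above the others in both libraries, by log2 2.15 over GM12878 and 1.14 over HepG2 (adjusted p = 0.00665 and 0.043). The first rested on 6 reads in GM12878 and was lost with DESeq2, and the second was lost in 6 of 13 alternatives. Of the 62 reads of MRPL30 in all, 45.2% were on genomic models and 30.6% on known ones. MRPL30 overlaps AC079447.1 and AC092587.1 on the same strand, which had 33 and 1 reads.

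Genes around MRPL40 were also higher in K562. Of 10 other tested genes that start within 500 kb of it on chromosome 22, 7 were called higher in K562 than in GM12878 and 8 higher than in HepG2, and none was called lower. The shares over all tested genes were 13.9% and 17.4%. Among them were CDC45, a replication factor, at 54.6, 8.41 and 208 CPM in GM12878, HepG2 and K562, and GNB1L at 10.5, 12.6 and 109. SLC25A1, the mitochondrial citrate carrier, was at 134, 718 and 547, higher than in GM12878 but not called against HepG2, and HIRA was called in neither. SEPT5 and the readthrough gene SEPT5-GP1BB overlap, had 0 reads in GM12878, and count as 2 of the 10. The neighbourhood was looked at because MRPL40 had been called.

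**Figure D3:**
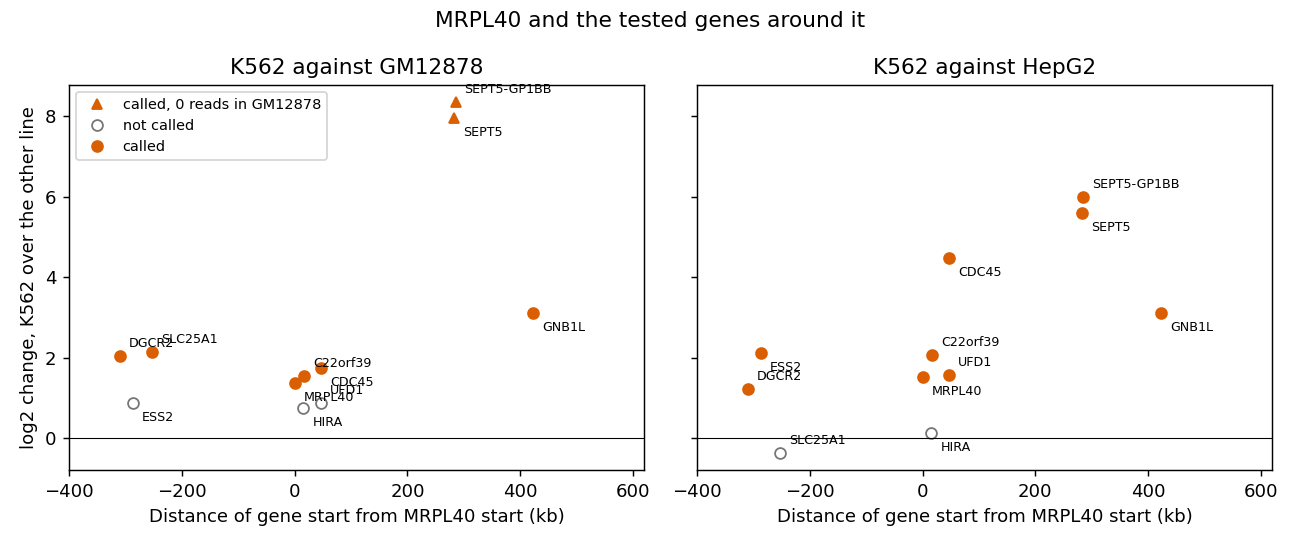
The log2 change of MRPL40 and of the 10 other tested genes within 500 kb, against the distance of their starts from that of MRPL40, for K562 over GM12878 (left) and over HepG2 (right). Filled symbols are called genes; triangles mark genes with 0 reads in GM12878, whose fitted change depends on the prior count and is no bound. All points on the left lie above 0.

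A similar neighbourhood was seen around MRPL52 on chromosome 14. Of 14 other tested genes within 500 kb, 8 were called higher in HepG2 than in GM12878 (28% of all tested genes were) and 2 lower, and 9 were called lower in K562 than in HepG2 (26.7% of all tested genes were) and 1 higher. One of them belongs to mitochondrial translation: OXA1L, the insertase that receives new chains from the mitochondrial ribosome, starts 63.4 kb from MRPL52. It stood at 113, 534 and 142 CPM in GM12878, HepG2 and K562. Its changes were log2 2.25 for HepG2 over GM12878 (SE 0.27, adjusted p = 5.09e-10, edgeR) and -1.90 for K562 over HepG2 (SE 0.28, adjusted p = 8.76e-08).

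These were the neighbourhoods with the highest number of neighbours called the same way, and they were chosen for it. Over all calls of members, 19 of 57 neighbours were called the same way as the member in HepG2 against GM12878 and 8 the other way, 14 and 2 of 36 in K562 against GM12878, and 39 and 3 of 68 in K562 against HepG2. A gene near 2 members counts for each, and the MRPL40 and MRPL52 neighbourhoods are included. Of all tested genes, 28% were called higher and 21.1% lower in HepG2 than in GM12878. The shares higher and lower in K562 were 13.9% and 14.8% against GM12878, and 17.4% and 26.7% against HepG2. In all, 36 of the 43 calls had a tested neighbour, and in 11 of these no neighbour was called the same way. Around MRPL24, 1 of 9 neighbours was called the same way and 3 the other way.

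Both genes of the head-to-head pair were called lower in K562 than in HepG2. MRPS11 read 153, 151 and 197 CPM in GM12878, 109.6, 106 and 125 in HepG2, and 71.4 and 41.4 in K562, so the 3 lines did not overlap. MRPL46 read 86.7, 145 and 56.2 CPM in GM12878, 130.3, 79.3 and 177 in HepG2, and 32.4 and 62.1 in K562, where the GM12878 and HepG2 values overlapped. The changes for K562 over HepG2 were log2 -1.09 (SE 0.40, adjusted p = 0.0188) for MRPS11 and log2 -1.37 (SE 0.42, adjusted p = 0.00551) for MRPL46. Against GM12878 they were log2 -1.60 (adjusted p = 0.00151), a call, and -1.03 (adjusted p = 0.0843), not a call. The MRPS11 call against HepG2 was lost in 6 of 14 alternatives, DESeq2 and the omission of K562 replicate 2 among them, and its call against GM12878 only without K562 replicate 2. The MRPL46 call was lost when only known models were counted. In the other 3 pairs of a member and a tested protein-coding gene that start head to head, no comparison called both genes. MRPL47 was higher in K562 than in HepG2 while its neighbour NDUFB5, a complex I subunit, was not called there (log2 1.19 and 0.06). MRPL18 was called in no comparison, while TCP1, a chaperonin subunit, was higher in K562 than in HepG2 (log2 1.09). Likewise MRPL36 was not called, while NDUFS6, also of complex I, was called in both that involve HepG2.

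Members lower in K562 than in GM12878 alone were MRPL54, MRPL23 and MRPL27. MRPL54, without a bacterial counterpart, read 273, 221 and 267 CPM in GM12878, 130.3, 153 and 155 in HepG2, and 90.8 and 110.4 in K562. The lines did not overlap, with GM12878 highest and K562 lowest, and the change of log2 -1.29 (SE 0.33, adjusted p = 0.0015) held in 14 of 14 alternatives. MRPL23, a tunnel exit protein, read 233, 244 and 253 CPM in GM12878, 157, 148 and 155 in HepG2, and 129.8 and 82.8 in K562. The lines were again in that order without overlap, at log2 -1.24 (adjusted p = 0.00256). The call was lost without K562 replicate 2 and when only known models were counted. MRPL27, whose bacterial counterpart reaches towards the peptidyl transferase centre, gave -1.03 (adjusted p = 0.0152) and was lost in 11 of 14 alternatives.

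The remaining calls were between K562 and HepG2 alone. MRPL47, MRPS30 and MRPS25 were higher in K562, by log2 1.19, 1.31 and 1.02 (adjusted p = 0.00223, 0.0275 and 0.0144, edgeR). MRPL43, MRPL33 and MRPL57 were lower, by log2 -1.36, -1.17 and -1.06 (adjusted p = 0.00611, 0.00462 and 0.0314). Those of MRPL43 and MRPL33 were lost without K562 replicate 2, those of MRPL47 and MRPS30 without replicate 1, and that of MRPS25 without replicate 2. The MRPL33 call was also lost with only the 2 lines compared. The MRPS25 call was lost in 7 of 14 alternatives, RLE scaling and DESeq2 among them, and that of MRPL57 in 12 of 14. DESeq2 and the replicate block also lost MRPS30.

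The K562 libraries differed from each other over the members as a set. In replicate 1, 53 of 78 members (67.9%) had a higher CPM than in replicate 2, against 38.2% of tested genes, with a median log2 ratio of 0.32 for members and -0.07 for tested genes. Within GM12878 and HepG2, 24 to 42 of the 78 were higher in the first library of a pair. At the low end, 30.8% of members were higher in HepG2 replicate 2 than in replicate 3, against 45.9% of tested genes. The median log2 ratio there was -0.17 for members and 0 for tested genes, so that pair also differed over the set. GM12878 replicates 1 and 3 differed by a similar amount, at -0.18 for members and 0 for tested genes. There 37.2% of members were higher in replicate 1, against 46.9% of tested genes. In K562, single members ranged from MRPL36, at 26.0 and 62.1 CPM in replicates 1 and 2, to MRPL1, at 58.4 and 6.90. MRPL1 had 11 K562 reads, and MRPL20 was next at 415 and 145. With 2 libraries no outlier can be named, and each K562 mean of a member carries this gap.

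Most reads of members fell on annotated transcripts. A known model matches an annotated transcript splice for splice. An incomplete splice match (ISM) holds a run of its junctions, a new combination (NIC) joins annotated splice sites differently, and a new splice site model (NNC) uses at least 1 site that is not annotated. A genomic model overlaps the gene and is none of these. Known models took 58.2% of member reads over the 8 libraries, against 42.9% for all annotated genes. By line this was 59.1% ± 1.67, 56.1% ± 3.63 and 59.7% ± 1.93 (SD over 3, 3 and 2 libraries of GM12878, HepG2 and K562), so the lines lay within the spread of their libraries. ISM reads were 18% (22.6% for all genes), NIC 12.5% (17.4%), NNC 6.77% (6.17%) and genomic 4.51% (10.9%). Of the ISM reads, 85.9% were suffix matches, which keep the 3′ end and lack the 5′ part, against 82.0% for all genes. The known models of members, weighted by their reads, averaged 1362 bases in GM12878, 1343 in HepG2 and 1429 in K562. These are lengths of the models and not of the reads.

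**Figure D4:**
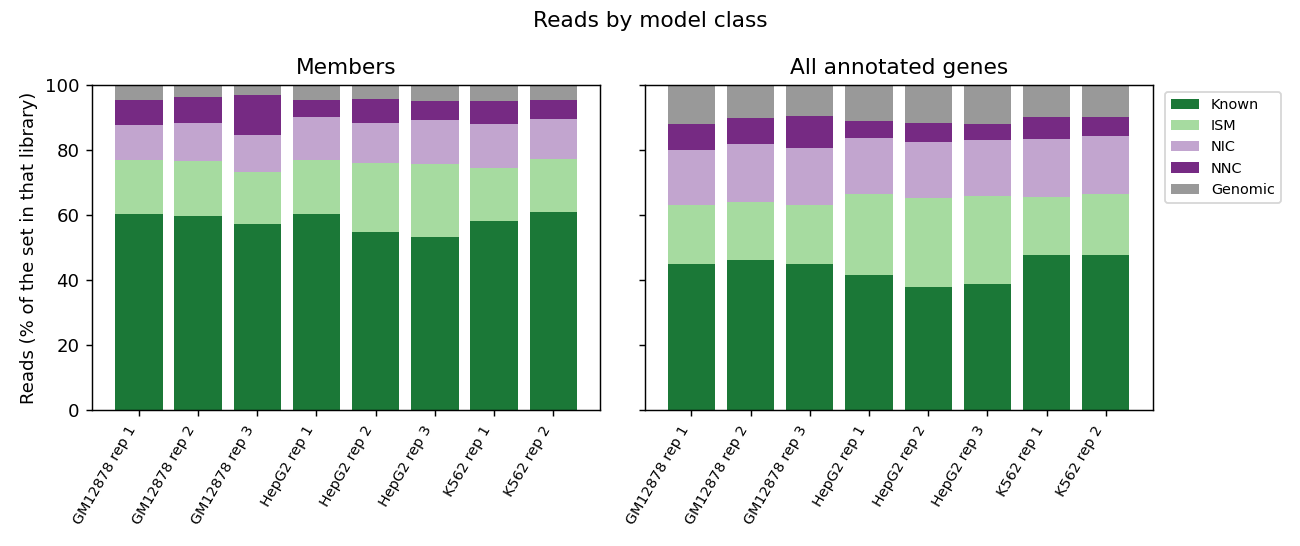
Reads by model class in each of the 8 libraries, as a percentage of the reads on members (left) and on all annotated genes (right). The known share of members lies between 53.2% and 61.1%, above that of all genes in every library, and the genomic share of members is lower in every library.

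Per gene, the median known share was 59.8% over the 78 members and 24.4% over the 4943 genes with at least 50 reads. Shares ran from 0% to 98.0%, with 11 members at 80% or more and 32 under 50%. The most fully known were MRPS21 (98.0% of 300 reads), MRPS24 (96.7% of 454), MRPL53 (93.8% of 128) and MRPL41 (92.4% of 210). Among the most abundant, MRPL51 was at 90.0%, MRPL52 at 74.2%, MRPL12 at 62.7%, MRPL14 at 58.7% and MRPL37 at 46.0%. Members with more exons had a lower known share (Spearman rho -0.57 across 78 members with the largest exon number of their known models). Those with longer known models, weighted by reads, also had a lower share (rho -0.35 across 77). These correlations are descriptions across genes of the same libraries.

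**Figure D5:**
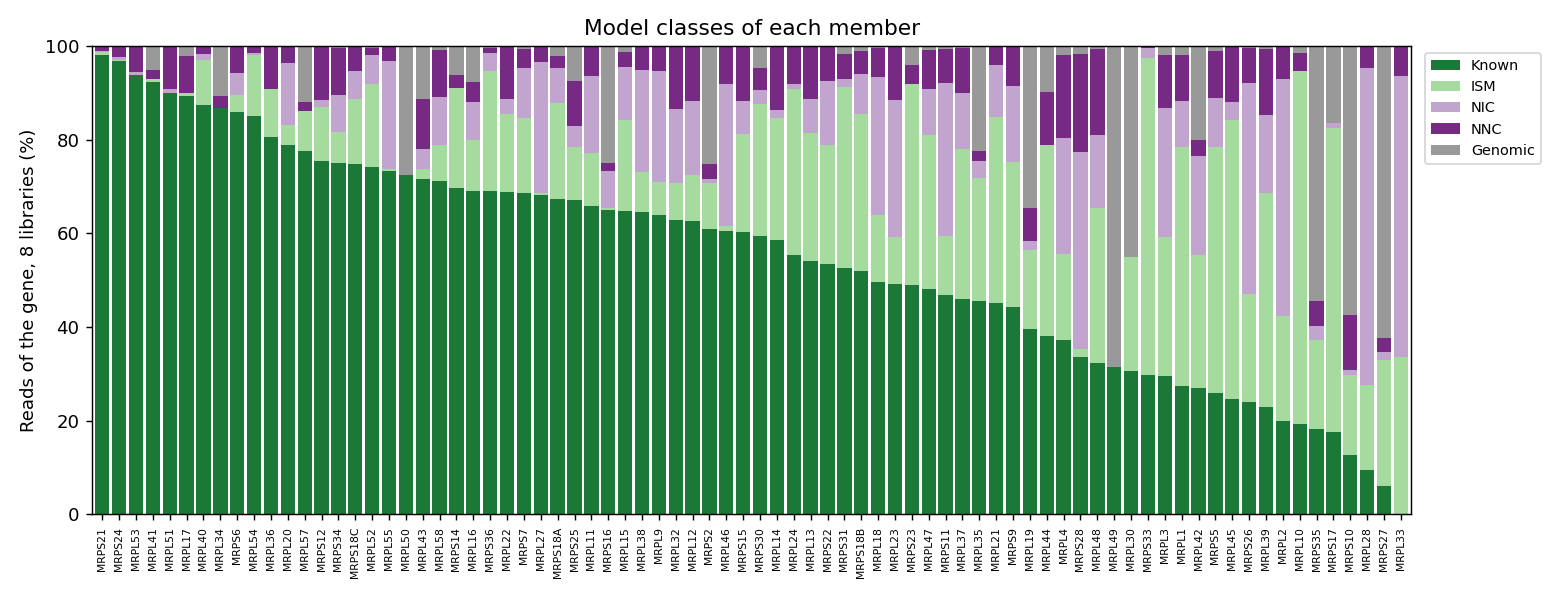
Model classes of each of the 78 members, as a percentage of its reads over the 8 libraries, ordered by the known share. The bars run from MRPS21, nearly all known, to MRPL33, with no known read, and grey genomic reads make up most of MRPL49, MRPS10, MRPS27 and MRPS35.

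The leading model, the one with most reads, was known in 66 members, ISM in 4 (MRPL10, MRPS17, MRPS33 and MRPS5), NIC in 4 (MRPL2, MRPL28, MRPL33 and MRPS26) and genomic in 4. MRPL33, a small protein of the large subunit, had no read on a known model among 217. Its annotated models of 404, 518 and 729 bases are in the tables at 0 in every library. Its first 2 models are NIC, with 3 exons and 493 bases (59 reads) and 2 exons and 386 bases (49 reads). The first held 6, 6 and 2 reads in GM12878, 17, 6 and 14 in HepG2 and 4 and 4 in K562, so it was seen in each library. The gene overlaps BABAM2 on the same strand, which had 90 reads.

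MRPL28 was led by a NIC model of 5 exons and 1484 bases with 161 of its 325 reads. The reads were 8, 9 and 7 in GM12878, 40, 13 and 23 in HepG2 and 25 and 36 in K562. Its known transcript MRPL28-201, of 6 exons and 1098 bases, had 29. The unlisted form was thus the main one in each line, at 40%, 50.3% and 53.5% of the reads of the gene. MRPL28 overlaps TMEM8A on the same strand, which had 192 reads. In MRPS17 the leading model was a suffix match of 2 exons and 471 bases with 67 of 103 reads, while the known MRPS17-201, of 3 exons and 1845 bases, had 18.

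Genomic models took over 50% of the reads of MRPS27 (62.3% of 167), MRPS10 (57.4% of 94), MRPS35 (54.5% of 132) and MRPL49 (68.6% of 118). Nearly all were models of 1 exon: 103 of 104 reads for MRPS27, 54 of 54 for MRPS10, 72 of 72 for MRPS35 and 81 of 81 for MRPL49. Their mean lengths were 886, 1090, 1035 and 1063 bases, and all these 1-exon reads were on models no longer than the longest annotated last exon of the gene (1740, 1572, 1115 and 1646 bases). At the other end, 28 members had no genomic read.

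Isoform choice within the known models was not called different in any member. Usage was tested with edgeR diffSpliceDGE in 27 members, and 0 were called in each comparison, where 1.63%, 0.592% and 0.888% of all tested genes were called (HepG2 against GM12878, K562 against GM12878 and K562 against HepG2). At an unadjusted p under 0.05 there were 0, 0 and 3 members, the last being MRPL13, MRPL35 and MRPL9. The clearest of them by its libraries was MRPL13, a large-subunit protein with a bacterial counterpart. MRPL13-206, of 2 exons and 480 bases, took 36.8% to 53.8% of its known reads in the HepG2 libraries, 6.25% and 14.3% in K562, and 35.7%, 8.33% and 0% in GM12878, and MRPL13-201, of 7 exons and 1086 bases, took the rest. HepG2 was above K562 in each library, but over 119 reads the adjusted Simes p was 0.303. Shifts this large went uncalled at this depth, so these counts of 0 do not show that usage is alike.

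Several members showed 2 or more known isoforms side by side in each line. MRPS24 divided its known reads between MRPS24-201 (4 exons, 707 bases), MRPS24-203 (3 exons, 743 bases) and MRPS24-205 (2 exons, 392 bases). The first took 67.9% ± 10.4, 51.1% ± 4.95 and 59.5% ± 13.5 in GM12878, HepG2 and K562 (SD over 3, 3 and 2 libraries), and the second 21.2% ± 10.4, 35.9% ± 3.49 and 28.4% ± 8.20. MRPS12, a protein of the decoding centre, used MRPS12-203 at 74.4% ± 6.0, 56.6% ± 5.28 and 59.5% ± 2.54. Its GM12878 libraries (81.3%, 72.0% and 70.0%) lay above the 5 others (52.4% to 62.5%), yet the shift was not called. In MRPL52 the transcript MRPL52-210 held 79.5%, 73.8% and 75.6% of known reads, so its higher level in HepG2 came without a called change of isoform.

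The share of reads on known against all other models was tested in 73 members, again with edgeR diffSpliceDGE, and 0 were called in each comparison (0.264%, 0.113% and 0% of all tested genes). At an unadjusted p under 0.05 there were 0, 0 and 2. The pair were MRPS18A, with 82.0% of reads on known models in K562 and 57.4% in HepG2, and MRPS26, with 57.5% on other models in K562 and 82.4% in HepG2. Neither passed adjustment (adjusted p = 1).

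The genes that serve the mitochondrial ribosome were read from lists of related function. Their counts stand beside 49.1%, 28.7% and 44.1% of all tested genes called in HepG2 against GM12878, K562 against GM12878 and K562 against HepG2. Calls in these lists are those of the main fit, and their stability under the alternatives is not given. Of 5 proteins of the particle with other symbols, all were tested, and AURKAIP1 fell in HepG2 against GM12878 (343 to 155 CPM, log2 -1.12, adjusted p = 0.000433). Of 8 tested translation factors, 2 rose and 1 fell in HepG2 against GM12878: OXA1L, TACO1, an activator of COX1 translation (54.7 to 120 CPM, log2 1.29, adjusted p = 0.00497), and MRRF, the recycling factor (56.0 to 26.4 CPM, log2 -1.18, adjusted p = 0.0456). MRRF was lower still in K562, at 11.7 CPM (log2 -2.30 against GM12878, adjusted p = 0.00729). In K562 against HepG2, MTIF2, the initiation factor, rose (39.5 to 89.9 CPM, log2 1.18, adjusted p = 0.0158) and OXA1L and TACO1 fell.

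Of 13 tested assembly and rRNA modification genes, 1 rose and 2 fell in HepG2 against GM12878. TFB1M, which methylates the small rRNA, rose from 27.5 to 82.3 CPM (log2 1.32, adjusted p = 0.0141), and MRM2, a large-rRNA methyltransferase, fell from 84.2 to 18 (log2 -2.17, adjusted p = 0.000157). FASTKD2 was called lower in both other lines than in GM12878 (68.2 CPM in GM12878, 34.4 in HepG2 and 28.3 in K562). Its GM12878 libraries (42.2 to 86.7 CPM) overlapped those of HepG2 (23.7 to 47.9). Of 8 tested genes in the list of mitochondrial aminoacyl-tRNA synthetases, 1 was called in HepG2 against GM12878 and 2 in each comparison of K562. Against GM12878 the 2 were GARS, higher in K562 (263 to 510 CPM), and CARS2, lower in K562 (84.4 to 23.5). TARS2 was called lower in HepG2 than in both other lines, at 15.5 CPM against 41.9 in GM12878 and 54.2 in K562. Its GM12878 libraries (53.3, 58.2 and 14.1 CPM) overlapped those of HepG2 (11.8, 5.28 and 29.5). POLRMT, the mitochondrial RNA polymerase, was at 42.1 CPM in GM12878, 133 in HepG2 and 133 in K562 (log2 1.53 in each, adjusted p = 0.00114 and 0.00522). TFB2M, its partner in starting transcription, was called lower in HepG2 than in GM12878 (42.1 to 12.9 CPM, log2 -1.66, adjusted p = 0.0366, edgeR). Its GM12878 libraries (17.5 to 66.7 CPM) overlapped those of HepG2 (5.92 to 22.1). Among regulators of nuclear genes for mitochondria, 4 of 9 were tested. ESRRA rose in HepG2 (21.6 to 61.1 CPM, log2 1.47, adjusted p = 0.0154), and PPRC1 fell in K562 against GM12878 (56.2 to 13.4 CPM, log2 -2.01, adjusted p = 0.0154).

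Among the messenger RNAs that this ribosome translates, all calls in K562 were lower. Of 9 tested mitochondrially encoded mRNAs, 4 were called lower and none higher in K562 than in GM12878 (14.8% of all tested genes were lower), and 6 lower and none higher than in HepG2 (26.7%). The median changes were log2 -1.26 and -1.99. In HepG2 against GM12878 all 9 fitted changes were above 0, and MT-ND5 was called (207 to 502 CPM, log2 1.29, adjusted p = 3.58e-05, edgeR). The K562 libraries lay apart, with replicate 1 below replicate 2 in 9 of 9, as in MT-ND4 at 19.5 and 283 CPM. Without replicate 1 the lower calls stayed at 4 and 6 in number, with medians of log2 -0.65 and -1.54, and without replicate 2 they were 8 and 8, with medians of -3.02 and -3.99. MT-ATP6 was at 243 and 329 CPM in GM12878 and HepG2, and at 13 and 44.8 in the 2 K562 libraries. The medians of the 76 tested members in the same comparisons were 0.05 and 0.18.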

How the data were processed

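Native RNA of 8 libraries was sequenced on Oxford Nanopore instruments from total RNA, per the labels. The submitters' processing notes name minimap2 and the hg38 build. Per the labels the deposited tables come from TALON, and the versions of both tools are not given in the sources used here. The tables hold read counts per transcript model, not normalized, per the file headers, and the model length and exon number are other values of the deposited tables.

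For each annotated gene the counts of its models were added, passed through filterByExpr and scaled by TMM. Lines were compared with the quasi-likelihood test of edgeR 4.0.16 under R 4.3.3 (robust glmQLFit), two-sided, in 1 fit over 8 libraries with Benjamini-Hochberg adjustment over 4778 genes. K562 has 2 libraries, and the fit estimates a single spread per gene over all 8 libraries, those of K562 included. A wider spread in K562 could therefore be understated in its comparisons. Usage was tested with diffSpliceDGE on transcripts of 10 reads or more, where the gene held 10 or more per line, and called with a shift of at least 10 percentage points. The code was tested on simulated counts. Coordinates come from GENCODE release 29, and windows from RefSeq.

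Members and lists were chosen with earlier results of these data known. Named were the 6 most abundant members of each subunit, up to 8 called members per comparison and direction after adding 10 CPM, MRPL12 and the MRPS18 copies, up to 2 called genes per list and direction, and members with the highest and lowest known share at 50 reads or more. MRPS2, MRPS11, MRPL57 and MRPS25 fall outside the 8 in 1 comparison, and isoform examples, neighbours, overlapping genes and printed windows were chosen after their values were seen. Same-numbered libraries of different lines did not deviate together (7 pairs, correlations -0.054 to 0.038), and numbers were not used as pairs. The deviations are from means of 2 or 3 libraries, so these correlations cannot exclude a shared batch. Alternatives were RLE scaling, DESeq2 1.42.0, no filter, a replicate block, only the 2 lines compared, known models only and each library left out.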

Additional observations from a re-analysis of the deposited data

How the results depend on the processing

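Of 43 calls of members, 14 held under every alternative run, 29 were lost under at least 1 and 0 reversed. Calls lost were 12 with DESeq2, 2 with RLE, 9 with known models only, 11 without a filter on low counts, 7 with only the 2 lines compared, and 5 to 13 without 1 library, the most without K562 replicate 2. The replicate block lost 7, and whether the numbers mark a shared batch is not known. With the block the members higher in K562 than in GM12878 went from 2 to 6. They were 1 with DESeq2, 5 without a filter, and 3 to 6 when each library was left out. Those lower in K562 than in GM12878 went from 6 to 3 with DESeq2, without a filter and with known models only, and to 3 to 6 by library. Members higher in HepG2 than in GM12878 went from 7 to 4 with known models only, and to 3 to 9 by library. Those lower in K562 than in HepG2 went from 10 to 6 with only the 2 lines compared, to 4 with known models only, and to 4 to 12 by library. The cause was not tested, though known models alone leave fewer reads and genes. The share of reads on members was 1.39%, 1.10% and 1.37% in GM12878, HepG2 and K562 with known models only, and 1.38%, 1.08% and 1.44% without the 50 most abundant genes. The known share of members was 61.4% in GM12878 and 62.7% in K562 with genomic models left out, and 57.6% in K562 with each member weighted alike. RLE scaling moved the median of all genes by at most 0.05 (log2). Transcript usage could be tested in 27 of 78 members, and 56 had reads on 2 or more known models.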
